A study of Mus musculus with 75 samples.

Results

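CTCF sites regained in ana/telophase are positions in the mouse genome where CTCF was called in asynchronous cells and in ana/telophase but not in pro-metaphase. They were selected on CTCF calls alone, as asynchronous CTCF peaks that shared no base with a pro-metaphase CTCF peak and at least 1 bp with an ana/telophase CTCF peak. This rule found 17303 sites, 52.2% of the 33166 asynchronous CTCF peaks. They are set beside the 11468 asynchronous sites with a pro-metaphase peak, called kept sites (34.6%), and the 4395 sites with a peak in neither list, called slow sites (13.3%). An ana/telophase CTCF peak was present at 86.7% of all asynchronous sites and at 99.9% of kept sites. All groups used here are uninduced cultures of 1 line, G1E-ER4, which derives from the GATA1-null proerythroblast line G1E of strain 129.

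Nocodazole at 200 ng/ml for 7 to 8.5 h arrested the cells, which were then released and sorted. The release lasted 0 min for the pro-metaphase group and 25 min for ana/telophase. It lasted 60 min for early, 120 min for mid and 240 min for late G1. Asynchronous cells have no release time. CTCF ChIP-seq had 3 pro-metaphase samples and 2 in each other group, Rad21 ChIP-seq had 2 in each group, and Hi-C had 2 in each of the 5 stages and no asynchronous sample. The remaining samples of the 75 (RNA polymerase II, input and Capture-C, the last partly from a line labelled commd3_mutant) were not analysed here.

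The deposited lists number 12 for peaks, 5 for domains, 5 for loops and 10 for stripes. Because replicates were pooled in each, no spread between samples can be given and no difference has a replicate test. Ranges in parentheses after a percentage are exact 95% binomial intervals, which cover counting error only; neighbouring sites are not independent, so these intervals are likely too narrow. Read depth is unknown. Whether a site without a pro-metaphase peak lacked CTCF or held too little for a call therefore cannot be told apart. Positions are in build mm9, counted from 1.

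CTCF is a zinc-finger protein that binds DNA at a long motif and stops the cohesin ring as it extrudes chromatin loops. Rad21 is the cohesin subunit that closes the ring. Where cohesin halts at CTCF, Hi-C shows loops (focal contacts between 2 anchors), stripes (lines of contact drawn from 1 anchor) and domain boundaries. Most of these structures are absent from mitotic chromosomes and are rebuilt as cells enter G1.

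Regained sites were of middle strength. The rule itself sorts sites by CTCF, so these values describe the selection. Their fold enrichment in asynchronous cells, the authors' ratio of ChIP to background at the peak summit, had a median of 17.7 (quartiles 11.8 and 26.0). The median was 38.1 (28.5 and 47.3) at kept sites and 9.83 (8.14 and 12.8) at slow sites. The weakest regained site had a fold of 3.70 and the strongest 61.7, so the classes overlapped widely. The median peak width was 280 bp at regained, 452 bp at kept and 203 bp at slow sites. In the ana/telophase list itself, regained sites had a median fold of 15.8, against 35.4 at kept sites. There 6.24% of regained sites, against 63.1% of kept sites, were among the strongest 25% of peaks.

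**Figure D1:**
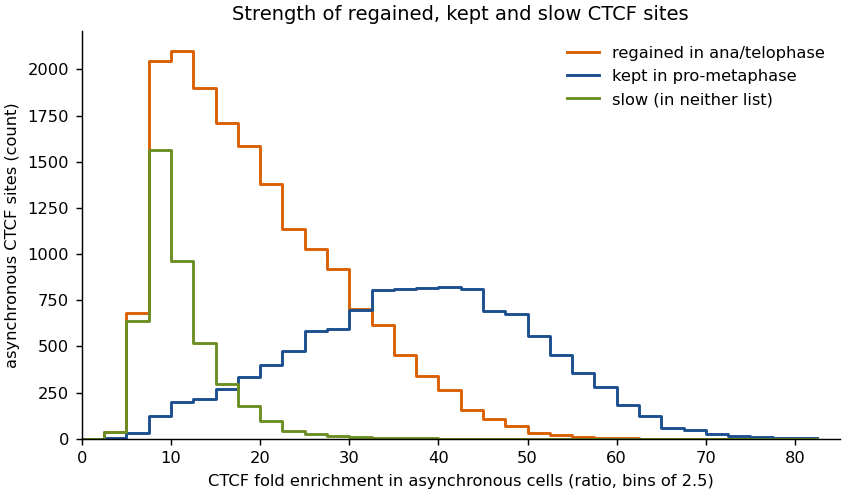
The x axis gives the CTCF fold enrichment in asynchronous cells in bins of 2.5 and the y axis the number of sites; lines stand for regained, kept and slow sites. Regained sites (median 17.7) lie between kept sites (38.1) and slow sites (9.83), with wide overlap.

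The rule requires a base shared with an ana/telophase peak, so close summits are largely set by the selection. The summit of a regained site was a median of 14 bp from the nearest ana/telophase summit, and 95.1% lay within 50 bp. Measured in bases, few sites were close to the limits of the rule. The smallest overlaps with an ana/telophase peak were 11 and 13 bases, and the nearest pro-metaphase peaks outside a regained site were 7 and 15 bases away, against a median of 37803. Just outside the rule, the smallest overlaps of kept sites with a pro-metaphase peak were 12 and 42 bases, and the closest slow sites lay 13 and 24 bases from an ana/telophase peak. With an overlap of 50% of both peaks required instead, the regained class held 21111 sites, so membership depended on how overlap was defined.

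CTCF was called at most regained sites through G1. A CTCF peak was called at 95.0% of them in early G1 (94.7 to 95.4), where the share of all asynchronous sites was 93.5%. The regained share was 94.9% in mid G1, against 95.1% of all sites, and 90.5% in late G1, against 91.6%. Kept sites had 99.5%, 99.0% and 98.3% in these stages and slow sites 71.3%, 85.7% and 78.9%. A peak in all of early, mid and late G1 was present at 15181 regained sites, or 87.7% (87.2 to 88.2), where the share of all sites was 87.9%. The same held for 98.0% of kept and 62.4% of slow sites. The share of regained sites was thus close to that of all sites, between those of kept and slow sites.

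The regained sites that missed a G1 list were weak ones. Sites called in every G1 list had a median asynchronous fold of 19.4. The largest group with a gap, 820 sites called in early and mid but not late G1, had a median fold of 9.83. At 353 regained sites, or 2.04% (1.83 to 2.26), no G1 list held a peak, where the share of all sites was 2.30%. Their median fold was 8.41, and none of them was among the strongest 25% of asynchronous peaks.

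Cohesin was called at a smaller share of regained than of kept sites in every list. In ana/telophase, when CTCF was first called at these sites, 2388 of them carried a Rad21 peak, or 13.8% (13.3 to 14.3), where the share of all asynchronous CTCF sites was 21.3%. Kept sites had 39.5% and slow sites 2.94%. In early G1 the regained share was 19.0%, against 25.7% of all sites, in mid G1 it was 36.1%, against 44.1%, and in late G1 it was 43.2% (42.5 to 44.0), against 51.9%. In asynchronous cells it was 30.9%, against 39.4%. Kept sites reached 68.8% in late G1 and slow sites 41.9%, close to the regained share.

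**Figure D2:**
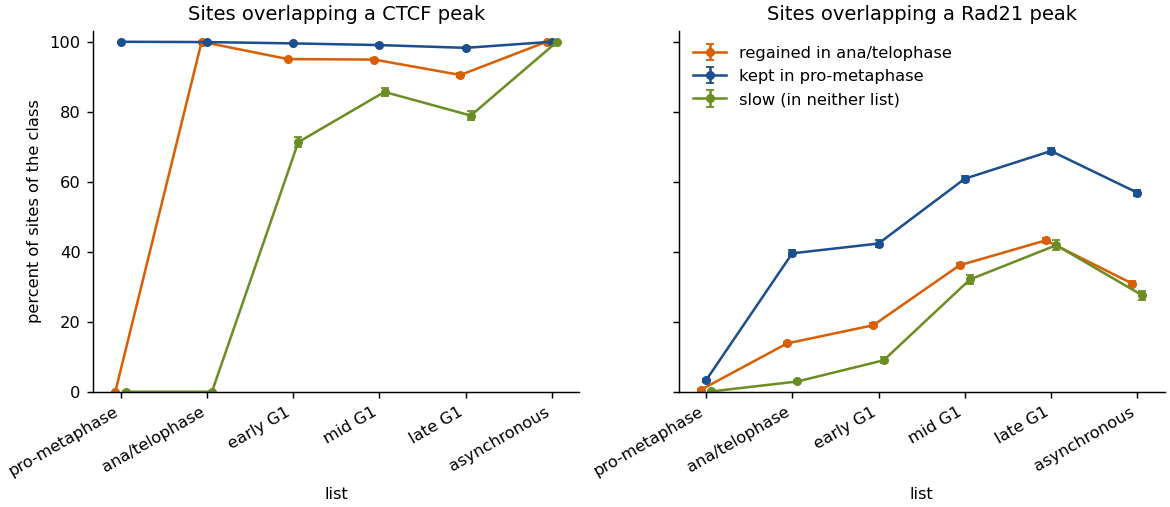
The x axes give the 6 lists in order of time with asynchronous cells last, and the y axes the percentage of regained, kept and slow sites that overlap a CTCF peak (left) or a Rad21 peak (right). Bars are exact 95% binomial intervals; in late G1 Rad21 was at 43.2% of regained, 68.8% of kept and 41.9% of slow sites.

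In pro-metaphase 95 regained sites had a Rad21 peak, or 0.549%, where the share of all sites was 1.41%. Of the peaks in that Rad21 list, 97.0% had a −log10 q under 5, so these calls are weak. The same 95 sites had strong Rad21 peaks later, with a median late-G1 Rad21 fold of 22.1.

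The stage at which Rad21 was first called went with the strength of a regained site. Ana/telophase was the first stage with Rad21 at 2310 sites (13.4%), early G1 at 1394 (8.06%), mid G1 at 2689 (15.5%) and late G1 at 1488 (8.60%). Over all asynchronous sites these shares were 19.9%, 8.33%, 16.0% and 8.82%. A further 158 regained sites had Rad21 in asynchronous cells alone, and 9169, or 53.0% (52.2 to 53.7), had no Rad21 peak in any list. The share with none was 44.5% of all asynchronous sites, 27.9% of kept and 54.7% of slow sites. In the order of these stages the median asynchronous CTCF fold was 27.6, 25.3, 21.9 and 20.0, and it was 13.5 for sites with no Rad21. Their late-G1 Rad21 fold followed the same order, with medians of 14.4, 10.9, 7.45 and 5.32 from ana/telophase to late G1. Among kept sites these medians were 14.8, 10.8, 7.27 and 5.32, so sites with the same first stage had nearly the same Rad21 fold in both classes.

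Once called at a regained site, Rad21 was mostly found again. Of the 2388 regained sites with Rad21 in ana/telophase, the early-G1 list held it at 78.8%, the mid-G1 list at 93.7%, the late-G1 list at 96.0% and the asynchronous list at 89.6%. All 4 of these lists held it at 76.0% of the sites (74.3 to 77.7), against 81.2% of the 4535 kept sites with ana/telophase Rad21. The early-G1 Rad21 list was short, with 8694 peaks against 15762 in mid G1 and 18958 in late G1.

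Kept sites were stronger, so Rad21 was also compared among sites of like CTCF strength, in 10 groups of equal size, called strength groups 1 to 10, from the weakest to the strongest asynchronous fold enrichment. In late G1, Rad21 was more frequent at regained than at kept sites in 10 of 10 strength groups, by 3.77 to 20.1 percentage points. In strength group 3, at a median fold of 12.5 at regained sites, 23.3% of 2228 regained sites carried late-G1 Rad21 (21.6 to 25.1), against 3.18% of 220 kept sites (1.29 to 6.45). In strength group 8, the shares were 78.4% of 1314 regained sites and 73.3% of 1990 kept sites. Slow sites had more late-G1 Rad21 than regained sites in 7 of 7 strength groups that held at least 20 of them, for example 52.0% in strength group 3. In ana/telophase the order was the other way, with regained sites below kept sites in 8 of 10 groups and above slow sites in 7 of 7. Some of these differences were very small. Against kept sites the shares were 24.6% and 31.8% in strength group 7, but 55.0% and 55.2% in group 10. Against slow sites they were 18.2% and 6.33% in group 6, but 4.67% and 4.54% in group 3.

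**Figure D3:**
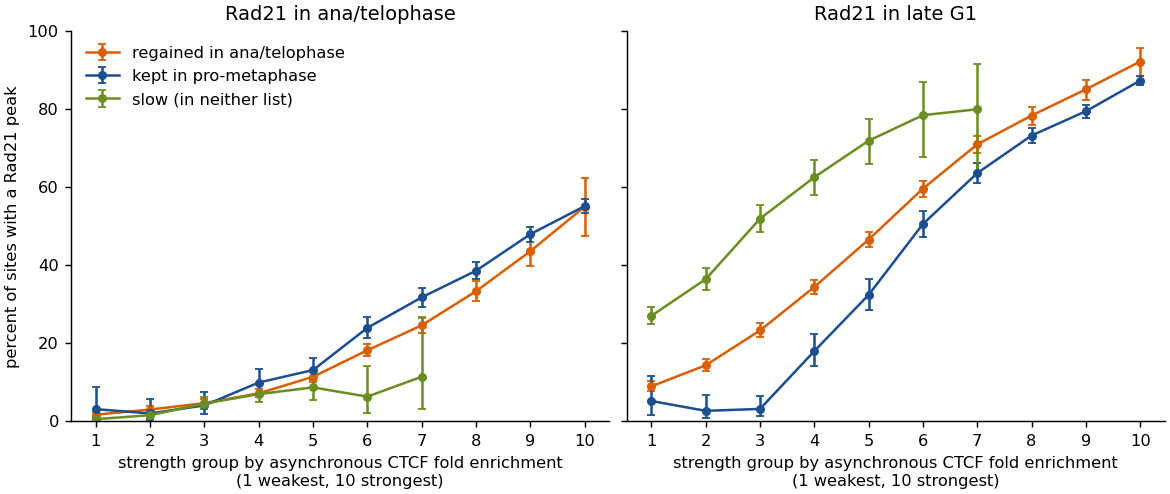
The x axes give the 10 strength groups of asynchronous CTCF fold enrichment from weakest to strongest, and the y axes the percentage of regained, kept and slow sites with a Rad21 peak in ana/telophase (left) or late G1 (right). Bars are exact 95% binomial intervals; in late G1 regained sites lie above kept and below slow sites in each group with at least 20 sites; with strength taken from ana/telophase, regained sites were above kept sites in 3 of 10 groups.

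The late-G1 order depended on the list that measured strength. With 10 groups by late-G1 CTCF fold, regained sites were above kept sites in 10 of 10, and by mid-G1 fold in 9. With groups by ana/telophase CTCF fold, regained sites were above in 3 of 10, and the difference ran between −23.0 and 1.44 points. Sites with no other asynchronous CTCF site within 50 kb, 2571 regained and 1326 kept, had regained above kept in 10 of 10 groups by asynchronous fold. All these comparisons by strength were chosen after seeing the data.

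Loop anchors were called at regained sites from early G1 on for the most part. A regained site lay in a loop anchor in 0.156% of cases in pro-metaphase, where the share of all sites was 0.139%, and in 5.90% in ana/telophase, against 6.17% of all. The regained share was 37.2% in early G1, against 40.0% of all sites, 46.0% in mid G1, against 50.0%, and 50.4% (49.7 to 51.2) in late G1, against 54.1%. In late G1 it was below the 60.4% of kept sites and near the 52.2% of slow sites. Within the strength groups by asynchronous fold the order differed. Regained sites were above kept sites in 10 of 10 groups in early and in late G1, and below slow sites in 7 of 7. In strength group 3 the late-G1 shares were 39.9% of regained, 17.7% of kept and 52.7% of slow sites. This comparison too was chosen after seeing the data, and strength from other lists was not tried for loops. The lists of loops also grew over these stages, with 84, 908, 7029, 9714 and 11340 loops from pro-metaphase to late G1.

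Within 20 kb of a domain boundary lay 12.4%, 21.5%, 27.4%, 29.5% and 29.3% of regained sites from pro-metaphase to late G1. The shares of all sites were 12.9%, 22.9%, 29.0%, 31.1% and 31.1% at these stages. In late G1 34.7% of kept and 28.8% of slow sites lay that near. The 5074 regained sites counted there in late G1 became 3279 within 10 kb, and 2830 with only domains in no larger domain. Stripe anchors held 7.29% of regained sites in late G1 (6.91 to 7.69), where the share of all sites was 8.83%, against 12.0% of kept and 6.64% of slow sites. From pro-metaphase to mid G1 the regained shares were 0.0694%, 0.925%, 6.56% and 7.21%, against 0.0784%, 1.09%, 8.16% and 8.80% of all sites. In late G1 641 regained sites (3.70%) lay in horizontal stripe anchors, where the share of all sites was 4.50%, and 639 (3.69%) in vertical ones, where it was 4.45%, so neither direction was favoured.

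Regained sites with cohesin were in loops more often than those without, as were CTCF sites in general. Of the 7483 with late-G1 Rad21, 65.2% (64.1 to 66.3) lay in a late-G1 loop anchor, 33.2% near a boundary and 11.3% in a stripe anchor. Of the 9820 without it, 39.2% (38.2 to 40.1), 26.4% and 4.23% did. Over all asynchronous sites the loop shares were 67.9% with late-G1 Rad21 and 39.2% without, and over kept sites they were 72.5% and 33.8%. Regained sites with Rad21 also had more CTCF, with a median asynchronous fold of 24.4 against 13.8, and the part of that strength in these shares was not tested. By the first stage of Rad21, ana/telophase to late G1, the shares in late-G1 loop anchors were 73.6%, 69.8%, 55.4% and 55.6%, and with no Rad21 the share was 39.1%. Over all sites these shares were 75.7%, 71.6%, 56.3% and 56.0%, and 39.1% with no Rad21.

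Among the 8726 regained sites in a late-G1 loop anchor, 3773 were in the upstream anchor of their loops alone, 3734 in the downstream anchor alone, and 1219 in both kinds. Each loop has an upstream and a downstream anchor, so near-equal counts are largely set in advance. Kept sites had 2922 in upstream and 2930 in downstream anchors alone, and slow sites 985 and 1022. One loop was recorded at 53.8% of them and 3 or more at 17.2%, against 46.7% and 23.2% of kept sites in anchors. Anchors are wide, with a median of 20 kb, and often hold several sites. For 3294 of the 8726, or 37.7%, every late-G1 anchor also held a kept site, while 5432, or 62.3%, had an anchor free of kept sites.

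A smaller share of loops between regained sites than between kept sites had been called by each stage from ana/telophase on. Each late-G1 loop anchor was assigned to the earliest class it held (kept, then regained, then slow). Kept-class anchors that also held a regained site had a median width of 30 kb, against 20 kb with regained sites only. Loops were matched by the gap between anchors, which depends on their width. They were not grouped by CTCF strength, and the part of width or strength in these shares was not tested. The 941 loops with a regained-class anchor at both ends had a loop within 20 kb at both anchors by ana/telophase in 5.53% of cases (4.15 to 7.18), where the share of all 11340 late-G1 loops was 8.25%. By pro-metaphase it was 0.213%, against 0.794% of all. By early G1 it was 61.4% (58.2 to 64.5), against 64.8% of all, and by mid G1 85.9%, against 85.6%. The 2591 loops between kept-class anchors had 0.232% by pro-metaphase, 11.2% by ana/telophase, 70.4% by early G1 and 89.8% by mid G1. The 2666 loops that joined a regained-class to a kept-class anchor had 0.150%, 6.86%, 65.0% and 87.9%. The 1206 loops with no asynchronous CTCF site in either anchor had 4.89%, 13.1%, 62.1% and 82.4%. They were 59 of the 90 late-G1 loops called by pro-metaphase.

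With classes set by an overlap of 50% of both peaks, 1432 loops between regained-class anchors had been called by early G1, or 63.8% of 2243, against 578 here, or 61.4% of 941. The order by early G1 was similar among loops with late-G1 Rad21 at both anchors. It was 61.0% (57.2 to 64.8) of 652 loops between regained-class anchors, 64.9% of 2146 mixed loops and 71.1% (69.3 to 72.9) of 2405 loops between kept-class anchors. The share of all 5977 late-G1 loops with Rad21 at both anchors was 66.5%. Long loops of both classes, by the distance between the bins of highest contact, had lower shares than short ones. Under 100 kb, 75% of the regained loops with Rad21 had been called by early G1, against 80.7% of the kept ones. From 200 to 400 kb the shares were 54.9% and 66.4%, and at 400 kb and over 32.5% (22.6 to 43.7) and 34.4% (28.9 to 40.2). The median contact ratio, observed over expected, of late-G1 loops was 3.48 between regained-class anchors, 3.71 in mixed loops and 3.95 between kept-class anchors. Over all late-G1 loops it was 3.28, and with no asynchronous CTCF site in either anchor 2.79. These contact values are the authors' own.

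**Figure D4:**
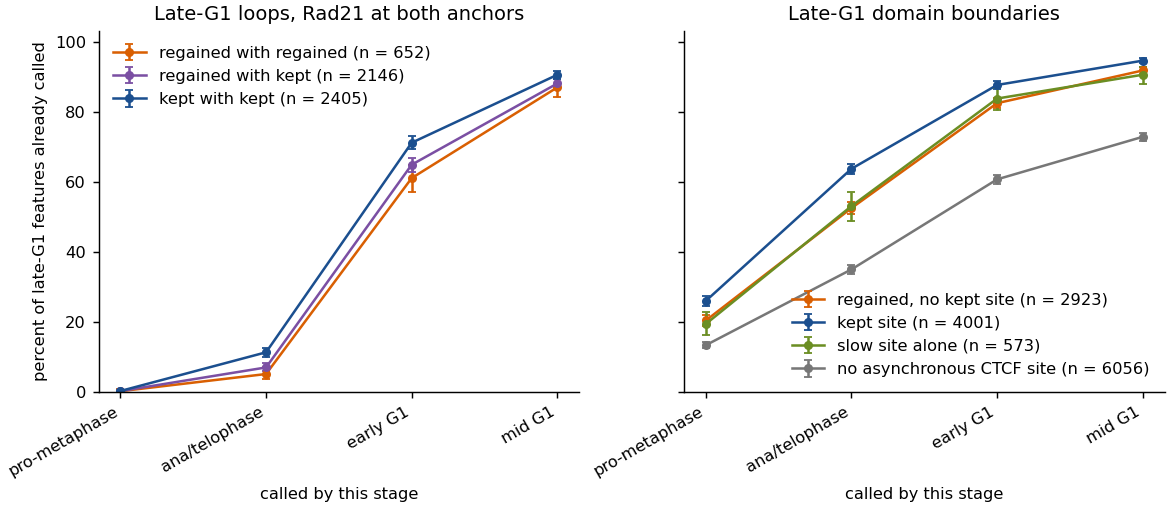
The x axes give stages in order and the y axes the percentage of late-G1 loops with Rad21 at both anchors (left) or of late-G1 domain boundaries (right) already called by that stage or earlier, with exact 95% binomial intervals. By early G1 61.0% of loops between regained-class anchors had been called, against 71.1% between kept-class anchors and 66.5% of all loops with Rad21 at both anchors.

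A smaller share of boundaries next to regained than next to kept sites had been called by each stage. Of the 13553 late-G1 boundaries, 2923 had a regained and no kept site within 20 kb. A boundary within 20 kb had been called by pro-metaphase for 20.4% of them, where the share of all late-G1 boundaries was 18.8%. By ana/telophase it was 52.5% (50.7 to 54.3), against 48.0% of all. By early G1 it was 82.4%, against 74.3%, and by mid G1 91.8%, against 84.1%. The 4001 boundaries with a kept site had 26.0%, 63.7%, 87.7% and 94.6%, and the 6056 with no asynchronous CTCF site had 13.3%, 35.0%, 60.7% and 72.8%. At each stage the share for regained sites was above that without CTCF and below that for kept sites, and the 573 boundaries with slow sites alone had shares near the regained ones. The 1534 boundaries with regained sites called by ana/telophase became 747 with only domains in no larger domain, or 54.2% of 1379, and 2376 with classes set by an overlap of 50% of both peaks, or 57.4% of 4140.

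The difference from kept sites was small at boundaries without Rad21. With late-G1 Rad21, the shares called by ana/telophase, early and mid G1 were 54.4%, 85.4% and 94.6% at boundaries with regained sites, against 66.0%, 89.6% and 96.2% at those with kept sites. Without it they were 48.7%, 76.8% and 86.3% with regained sites, against 51.4%, 77.1% and 86.3% with kept sites. All late-G1 boundaries had 60.3%, 87.5% and 95.1% with late-G1 Rad21, and 38.7%, 64.4% and 75.8% without it.

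Stripes with regained and with kept sites had been called at similar shares by early G1, and stripes with neither at lower ones. Of the 1745 late-G1 stripes, 472 had a regained and no kept site in their anchor, and 95.6% of these anchors had been called by early G1 (93.3 to 97.2), where the share of all was 94.6%. By ana/telophase it was 14.8%, against 15.1% of all. By mid G1 it was 97.5%, against 98.1% of all. The 1019 stripes with a kept site had 97.8% by early G1 and 16.3% by ana/telophase. The 46 with slow sites alone had 87.0% by early G1 (73.7 to 95.1) and 4.35% by ana/telophase, and the 208 with no asynchronous CTCF site had 78.4% (72.1 to 83.8) and 12.0%. Median stripe strength, a value given by the authors, was 2.82 with a regained and 2.84 with a kept site. Rad21 was present in the anchor of 89.4% of the regained and 98.7% of the kept stripes.

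Regained sites near a kept site were in loops more often than those far from one. The nearest other regained site was a median of 23780 bp away, the nearest kept site 38202 bp and the nearest slow site 113799 bp. Of the 3691 regained sites within 10 kb of a kept site, 69.8% lay in a late-G1 loop anchor (68.3 to 71.3), against 27.4% (25.6 to 29.2) of the 2353 sites at least 200 kb from one. Late-G1 Rad21 went the other way, at 38.2% of the near sites and 47.0% of the far ones. Their median CTCF folds were 17.8 and 16.6. Boundary shares did not fall steadily with distance, at 35.9% under 10 kb, 28.8% from 10 to 50 kb, 23.4% from 50 to 200 kb and 33.1% beyond. Near sites mostly shared their anchors with a kept site, which was so in every anchor for 2330 of the 2576 near sites in loops, or 90.5%. An anchor free of kept sites held 6.66% of the near sites and 27.4% of the far sites. In between it held 35.5% from 10 to 50 kb and 46.3% from 50 to 200 kb. Anchors have a median width of 20 kb, so distance itself largely sets whether an anchor also holds a kept site.

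Some sites stand out by position. The 3 regained sites with the highest ana/telophase fold among the 1467 that carried Rad21 in every list from ana/telophase on, and lay in a late-G1 loop anchor, were on chromosomes 5, 7 and 18. The first, chr5:86495548-86495942, had CTCF folds of 53.0, 46.1, 45.0 and 40.0 from ana/telophase to late G1 and 38.3 in asynchronous cells. Its Rad21 folds were 6.65, 7.00, 13.96 and 18.9 from ana/telophase to late G1 and 6.02 in asynchronous cells. The depth of each list is unknown, so these folds are set side by side without a comparison. The second, chr7:133521381-133521720, had an ana/telophase fold of 52.1 and lay in the anchors of 3 late-G1 loops, with a kept site 0.51 kb away. The third, chr18:70811614-70812186, had an ana/telophase fold of 51.5, the highest late-G1 Rad21 fold of the 3 (31.1) and boundaries within 20 kb in both ana/telophase and late G1.

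Strong CTCF without a Rad21 call was found as well, at a share close to that of all strong sites. Of the 9169 regained sites with no Rad21 peak in any list, 200 were among the strongest 25% of asynchronous CTCF peaks. They were 13.4% of the regained sites of that strength (11.7 to 15.2), where the share was 14.2% of all sites and 14.4% of kept sites of that strength. The 3 strongest were chr15:100162432-100162940, chr15:102300474-102300923 and chr11:61770097-61770465, with asynchronous folds of 55.4, 54.5 and 52.6. Each had CTCF in all G1 lists, with late-G1 folds of 16.9, 38.5 and 38.1, and none lay near a late-G1 boundary or in a stripe anchor. The first was in the anchor of 1 late-G1 loop, the second of 0 and the third of 2. At the other end, the strongest regained sites without CTCF in any G1 list were chr8:27007854-27008120, chr4:134706446-134706662 and chr5:114520945-114521183, with asynchronous folds of 14.9, 12.8 and 12.8. None of these 3 had Rad21 in any list or lay in a late-G1 loop anchor.

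The regained sites with the most loops were chr7:123183741-123184098 with 9 late-G1 loops, chr12:81209969-81210290 with 8 and chr1:130720803-130721163 with 8. All 3 lay in late-G1 stripe anchors and had Rad21 from ana/telophase on. Their Rad21 folds in ana/telophase were 15.3, 6.93 and 5.59, and in late G1 23.6, 14.1 and 19.0. The first also had a weak pro-metaphase Rad21 call, with a fold of 3.34, and boundaries within 20 kb in ana/telophase and late G1. A kept site lay 7.32, 23.8 and 8.35 kb from these 3 sites.

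Of the 652 late-G1 loops between regained-class anchors with Rad21 at both, 33 had been called by ana/telophase, or 5.06%. The share was 8.16% of all late-G1 loops with Rad21 at both anchors and 11.3% of those between kept-class anchors. Among the 33, the loop with the highest contact ratio joined chr14:20650001-20680000 to chr14:20850001-20910000, with 240 kb between the bins of highest contact. Its observed over expected ratio was 3.59, 7.47, 10.2 and 7.86 from ana/telophase to late G1. The anchors each held 1 regained site, with ana/telophase CTCF folds of 36.6 and 14.8, and both had Rad21 first in ana/telophase. Slow sites lay in both anchors as well. The next 2 loops joined chr6:149060001-149100000 to chr6:149290001-149340000 and chr11:22880001-22920000 to chr11:23150001-23200000, with late-G1 ratios of 7.56 and 7.51.

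**Figure D5:**
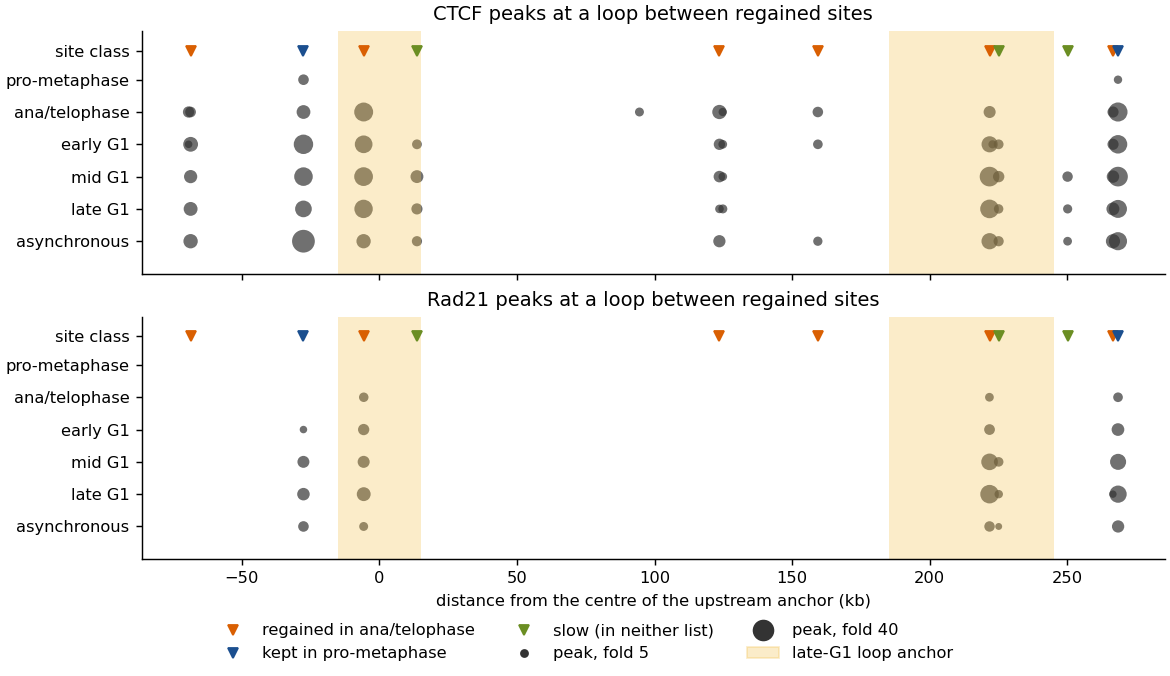
The x axis gives the distance in kb from the centre of the upstream anchor of the chromosome 14 loop, and rows give the lists in order of time for CTCF (top) and Rad21 (bottom). Circles are peaks with an area proportional to fold enrichment, triangles mark the class of each asynchronous CTCF site and bands are the 2 anchors of the late-G1 loop; both regained sites in the bands have Rad21 from ana/telophase on.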

How the data were processed

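Titles gave the assay, target and stage of each sample. Per the submitters' processing notes, the build is mm9, ChIP-seq reads were handled with Bowtie 0.12.7, SAMtools 1.7, MACS2 2.1.0 and bedtools 2.27.1, and Hi-C reads with HiC-Pro and Bowtie2. No source used here names what called domains, loops or stripes. Names inside the deposited peak lists say that replicates were merged and downsampled. The authors give each peak a fold enrichment (ratio) and a −log10 q. Per the file headers, loops carry a p-value and a contact signal, observed beside expected, and stripes carry a stripe strength. Domains come in bins of 10 kb. With depth unknown, a shallower stage may have lost weak features.

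Overlaps were computed in Python 3.11.15 (pandas 2.3.3, NumPy 2.4.6, SciPy 1.17.1) and drawn with Matplotlib 3.10.9. Interval functions were tested on simulated data against bedtools 2.31.1 and passed 7 of 7 tests. Boundaries are the distinct domain starts and ends. A boundary, or both anchors of a loop, matched within 20 kb, and a feature was called by a stage if that stage or an earlier one held a match. If several loops matched, the highest contact ratio was used. Stripe anchors of 1 direction matched if they overlapped.

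The members and lists were chosen with earlier results of these data known. Regions were named by rule: the 3 strongest regained sites of a stated kind, the 3 with the most late-G1 loops, the 3 late-G1 loops of highest contact ratio and the 3 windows of 1 Mb with the most sites. No genome of build mm9 was used here, so neither sequences nor gene names are given. Alternatives covered overlap, peak and loop thresholds, distances and the measure of strength.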

Additional observations from a re-analysis of the deposited data

How the results depend on the processing

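Of 46 alternatives over 10 counts, 37 stayed within 1.5 times the reported count and 9 did not. With only asynchronous peaks above the median fold, regained sites numbered 6410, of which 6409 had CTCF in all G1 lists and 4527 had late-G1 Rad21; fewer sites enter by construction. Regained sites near a late-G1 boundary numbered 3279 within 10 kb and 2830 with only domains in no larger domain, against 5074. Classes set with an overlap of 50% of both peaks gave 1432 loops between regained-class anchors called by early G1 (63.8%), against 578 (61.4%), and 2376 boundaries with a regained and no kept site called by ana/telophase (57.4%), against 1534 (52.5%). Outermost domains gave 747 (54.2%). The overlap of 50% moves sites from the kept to the regained class, which then held 21111. The count of strength groups in which regained sites had more late-G1 Rad21 than kept sites was 3 of 10 with ana/telophase strength, against 10; the cause was not tested. No stripe was shorter than 130 kb, so a minimum of 100 kb changed nothing. No CTCF peak had a −log10 q under 5, so a minimum of 5 could not change the CTCF counts of 17303 and 15181. These unchanged counts are among the 37. No paired analysis was possible because every deposited list pools its replicates, and no replicate could be left out for the same reason. Depth sets which weak sites are called, and it is unknown for every list.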

Other observations

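Regained sites made up more of the CTCF sites of the X chromosome, at 58.4%, than of any autosome, where the share ran from 49.5% on chromosome 12 to 56.1% on chromosome 16. Kept sites were 21.4% on X and 29.3% to 36.9% on autosomes. Sites on X were weaker, with a median asynchronous fold of 18.5 against autosomal medians of 19.9 to 23.6. With all sites split into 4 groups of equal size by fold, the regained share in group 2 was 72.9% on X (67.5 to 77.9) and 73.9% on autosomes (72.9 to 74.9), and in group 3 63.8% and 59.1%. In the weakest group it was 48.3% on X (41.7 to 54.9) and 57.8% on autosomes (56.7 to 58.9), and in the strongest 19.3% and 18.0%. A late-G1 loop anchor held 28.6% of regained sites on X, below the autosomal range of 41.0% to 57.9%, while late-G1 Rad21 was at 46.6% of them, within the autosomal range of 39.4% to 48.2%. Loop shares of kept, slow or all sites on X were not computed, so the low share need not be particular to regained sites.

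Regained sites occurred in 2219 of the 2334 windows of 1 Mb that held an asynchronous CTCF site, with a median of 5.5 per such window. Windows without any such site were not counted. The densest were chr10:79000001-80000000 with 47 regained, 32 kept and 4 slow sites, chr11:69000001-70000000 with 42, 22 and 5, and chr7:52000001-53000000 with 42, 24 and 3. In the first, 40 of the 47 regained sites lay in a late-G1 loop anchor and 16 had late-G1 Rad21. Over all asynchronous sites of the genome these shares were 54.1% and 51.9%. Of the 2219 windows, 341 had no kept site, and these held 871 regained sites.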
